A study of Mus musculus with 12 samples.

Results

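Chromatin modifier and remodeler genes were followed in hippocampal RNA of mice labelled as lacking CREB and CREM or as control, 1 h after kainate or saline. The genes were found by symbol, as those named Kdm, Kmt, Setd, Hdac, Kat, Smarc, Chd, Arid, Brd, Dnmt, Tet, Phf or Ing with a number or letter after the family name. On the array, 72 such genes had at least 1 probe set of their own, and 57 of them had a value over 4 (log2) in at least 3 of the 12 arrays. Where a gene had several probe sets, the one highest on average over the arrays stood for it, and the 57 were part of 4617 measured genes. Of the 57, 51 were over 4 in all 12 arrays, and 0 were over that level in the arrays of 1 group alone. Just inside the level were Smarca2, whose 3 highest values were at least 4.08, and Kdm1b, with at least 4.12. Smarca2 was over 4 in 7 of the 12 arrays and Kdm1b in 5. Just outside it were Phf24, whose 3 highest values were at least 3.85, and Brd8, with at least 3.66.

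The 4 groups were mice labelled mutant given kainate, mice labelled mutant given saline, control mice given kainate and control mice given saline, with 3 arrays each. Kainate, an agonist of ionotropic glutamate receptors that provokes seizures, was injected into the peritoneum at 20 mg/kg. All mice were littermates of both sexes aged 5 to 6 weeks that had been housed singly and handled. Each array carried RNA pooled from the hippocampi of 3 animals, so animal-to-animal spread is averaged within an array. The labels name the loss of CREB and CREM in the series title but give no allele, Cre driver or cell type for it. Creb1 averaged 7.97 ± 0.439 in labelled mutants with kainate and 8.23 ± 0.117 with saline, against 6.98 ± 0.154 in controls with kainate and 7.35 ± 0.350 with saline (log2, SD, n = 3 each). The Creb1 probe set was thus higher where the title implies loss, and whether its probes lie in a deleted part is not given. For that reason the genotype is named here only as labelled. A Crem probe set read 2.82 to 3.35 over the 12 arrays, under the level of 4 in every group, and was outside the tested probe sets. The labels do not say what the replicate numbers 1 to 3 stand for beyond calling the replicates biological.

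Genes of these families write, erase or read marks on histone tails, methylate or oxidise cytosine in DNA, or move nucleosomes with the energy of ATP. Kmt and Setd proteins add methyl groups to histone lysines and Kdm proteins remove them, while Kat and Hdac proteins add and remove acetyl groups. Brd, Phf and Ing proteins carry bromodomains or PHD fingers that bind acetylated or methylated lysines, Smarc, Chd and many Arid proteins belong to remodelling complexes, and Dnmt and Tet enzymes set and oxidise DNA methylation. In neurons, activity is known to drive transcription through CREB bound at cyclic AMP response elements and to recruit acetyltransferases there.

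Promoter windows were examined because CREB and CREM bind the palindrome TGACGTCA, and kainate-induced factors bind related sites. RefSeq windows of GRCm38.p6, from 250 bases before to 50 after a start, were found for 46 of the 57 genes. The full palindrome occurred in 2 of the 46 (4.35%), against 3.63% of 3750 tested genes with a window and 2.03% of 27025 genes in all. Its core TGACG, counted on both strands and also inside the full palindrome, occurred in 21 of the 46 (45.7%), against 36.6% of tested genes and 23% of all. The AP-1 motif TGACTCA, searched on both strands, occurred in 2 of the 46 (4.35%), against 4.05% of tested genes and 5.95% of all. Over windows, the median GC content was 65.8% for the 46 genes (66 windows), 62% for tested genes (4945) and 52.7% for all (32851). The core TGACG holds a CpG. In the motif shares, a gene with several windows counted once if any of them matched, and the window with the most matches is shown. Both genes with the full palindrome are printed first, Ing3 (chr6:21949321-21949620, plus strand) and Phf8 (chrX:151520422-151520721, plus strand). Next are the genes that passed the test for kainate with the replicate number in the model, Ing1 (chr8:11555512-11555811, plus), Chd1l (chr3:97610141-97610440, minus) and Kmt5b (chr19:3767171-3767470, plus). Kdm2b (chr5:122900318-122900617, minus) is the gene that passed for genotype. Each runs 5′ to 3′ on the gene's strand, and capitals mark TGACGTCA, TGACG or its reverse complement CGTCA.
Ing3: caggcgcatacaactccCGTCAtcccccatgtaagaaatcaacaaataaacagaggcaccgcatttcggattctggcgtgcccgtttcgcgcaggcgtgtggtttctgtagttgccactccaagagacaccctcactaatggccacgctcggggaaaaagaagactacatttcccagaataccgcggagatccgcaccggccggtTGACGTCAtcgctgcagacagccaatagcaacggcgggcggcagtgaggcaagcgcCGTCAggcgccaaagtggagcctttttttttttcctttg
Phf8: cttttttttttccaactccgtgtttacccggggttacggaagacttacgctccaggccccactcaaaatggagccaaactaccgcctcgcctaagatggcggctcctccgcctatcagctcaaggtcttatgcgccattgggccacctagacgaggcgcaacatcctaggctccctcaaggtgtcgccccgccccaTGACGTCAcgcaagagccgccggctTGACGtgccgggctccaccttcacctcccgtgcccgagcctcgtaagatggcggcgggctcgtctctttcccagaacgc
Ing1: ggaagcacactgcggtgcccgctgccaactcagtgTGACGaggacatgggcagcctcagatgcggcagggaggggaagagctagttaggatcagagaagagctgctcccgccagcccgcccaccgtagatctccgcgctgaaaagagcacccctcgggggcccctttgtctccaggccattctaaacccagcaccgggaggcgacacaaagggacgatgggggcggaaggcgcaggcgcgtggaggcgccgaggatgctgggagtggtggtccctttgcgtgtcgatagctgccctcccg
Chd1l: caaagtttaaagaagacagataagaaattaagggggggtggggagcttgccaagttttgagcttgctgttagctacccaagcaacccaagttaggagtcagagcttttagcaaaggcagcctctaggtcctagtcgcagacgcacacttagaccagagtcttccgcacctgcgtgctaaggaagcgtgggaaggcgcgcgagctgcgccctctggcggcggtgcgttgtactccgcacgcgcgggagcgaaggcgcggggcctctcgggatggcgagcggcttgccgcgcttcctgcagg
Kmt5b: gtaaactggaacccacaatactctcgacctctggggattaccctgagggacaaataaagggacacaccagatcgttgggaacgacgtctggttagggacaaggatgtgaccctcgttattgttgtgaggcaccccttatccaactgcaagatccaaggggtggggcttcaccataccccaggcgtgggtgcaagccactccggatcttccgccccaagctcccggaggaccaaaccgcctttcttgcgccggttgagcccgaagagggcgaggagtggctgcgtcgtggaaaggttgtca
Kdm2b: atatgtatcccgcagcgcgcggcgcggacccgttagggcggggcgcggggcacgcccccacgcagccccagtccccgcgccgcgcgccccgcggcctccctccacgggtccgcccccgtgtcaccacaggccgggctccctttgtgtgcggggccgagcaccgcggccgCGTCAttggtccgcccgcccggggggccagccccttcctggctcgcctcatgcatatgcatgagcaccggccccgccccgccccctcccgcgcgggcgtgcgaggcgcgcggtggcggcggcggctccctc

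Ing3, a PHD-finger reader of methylated lysine 4 on histone H3, and Phf8, an X-linked demethylase, did not pass a test in any comparison. Ing1 and Kdm2b held 1 core site each, while Chd1l and Kmt5b held 0 in these windows. No matching entry was used for Kdm6b, Kmt2e, Phf6, Kdm4b, Kdm5a, Chd2, Arid2, Kdm2a, Phf3, Arid4a or Phf20l1.

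Array medians ran from 3.77 to 4.07, and 5741 to 6378 probe sets were over 4 on an array. The arrays with replicate number 1 stood apart in every group. The middle actin control probe set read 11.1 to 11.8 on arrays with number 1 and 12.2 to 12.7 on those with number 2 or 3. Arrays that shared a number across groups also deviated together from their group means, in 18 of 18 pairs, with r from 0.361 to 0.881. Arrays numbered 2 and 3 from different groups gave r from 0.309 to 0.583. The offset of number 1 by itself raises these values, so they cannot show that numbers 2 and 3 are paired across groups. Results are given from the fit without and with a block for the replicate number, and without the number 1 arrays where that changes a call. Dusp5, a phosphatase that inactivates ERK, averaged 10.7 ± 0.0900 with kainate against 8.07 ± 0.0954 with saline in labelled mutants, and 10.4 ± 0.174 against 8.01 ± 0.107 in controls (log2, SD, n = 3 each). In whole hippocampus, fewer cells of a type and less RNA per cell cannot be told apart. Summed levels of 6 measured principal neuron markers of 19 listed, among them Neurod2 and Fibcd1, differed by genotype with kainate. They were 11.45 to 11.60 in labelled mutants with kainate and 11.45 to 11.70 with saline, against 11.70 to 11.92 in controls with kainate and 11.61 to 11.81 with saline (log2). For 3 measured interneuron markers of 13 listed, the sums were 10.28 to 10.45 with kainate against 10.70 to 10.97 with saline in controls, and overlapped in labelled mutants (10.37 to 10.82 against 10.51 to 10.89). For 2 measured choroid plexus markers of 13 listed, the sums in controls were 7.16 to 8.02 with kainate against 8.28 to 8.34 with saline. They overlapped in labelled mutants (7.73 to 8.38 against 7.38 to 8.89). Sums of the 3 measured oligodendrocyte and 3 measured endothelial markers overlapped between all groups. The part of any marker list in the gene differences was not tested.

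**Figure D1:**
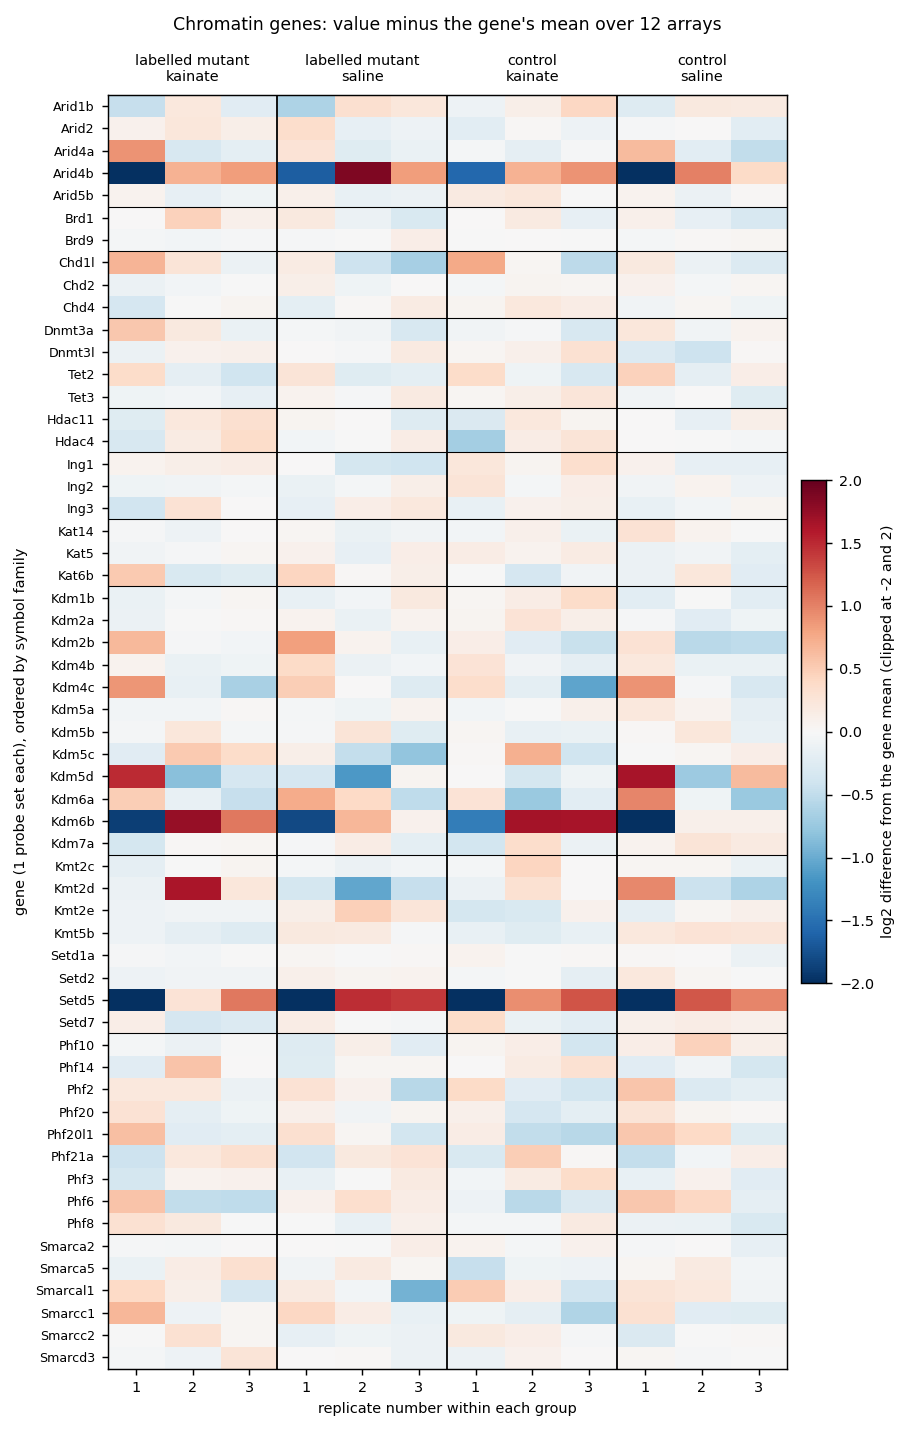
Values of all 57 chromatin genes on the 12 arrays, drawn as log2 differences from each gene's mean, with genes in rows by family and arrays in columns by group and replicate number. The number 1 columns of Setd5, Arid4b and Kdm6b are low in all 4 groups.

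Kainate against saline, averaged over genotypes, moved few of these genes. By limma without the block, 0 of the 57 passed at an adjusted p under 0.05, against 26 of 6334 probe sets tested (0.41%). An unadjusted p under 0.05 was reached by 6 of the 57 without the block and 12 with it, against 14.7% and 28.2% of all probe sets. With the block 4 of the 57 passed, or 7.02%, against 7.63% of all, a share near the background. Those higher were Kdm6b, Chd1l and Ing1 (5.26%, against 2.21% of all), and the lower one was Kmt5b (1.75%, against 5.42%). Over the 57 genes, 30 differences were above 0 and 27 below, with a median of 0.011 against 0.0079 over all probe sets (log2).

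Kmt5b, a methyltransferase that places di- and trimethyl marks on lysine 20 of histone H4, was the one gene whose kainate arrays all lay below all saline arrays. In labelled mutants it read 7.41, 7.33 and 7.25 with kainate, against 7.71, 7.69 and 7.49 with saline. Control arrays read 7.37, 7.27 and 7.36 with kainate, against 7.73, 7.79 and 7.75 with saline. The mean was 0.36 lower on the log2 scale with kainate (log2 difference -0.36, SE 0.0737, adjusted p = 0.0801 in limma), and it fell with the block (adjusted p = 0.0218). Of all probe sets, 1.04% had their 6 kainate values below their 6 saline values, and 1 of the 57 is 1.75%. In the opposite direction the count was 0 of the 57, against 0.71% of all. The difference was -0.43 in controls and -0.30 in labelled mutants, and neither passed alone (limma adjusted p = 0.309 and 0.707). Its other measured probe sets differed by -0.28 and 0.09, so 1 of them did not share the direction.

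Kdm6b, an activity-responsive demethylase of trimethylated lysine 27 on histone H3, showed the largest kainate difference of the 57. In labelled mutants it read 2.23, 5.85 and 5.17 with kainate, against 2.32, 4.78 and 4.21 with saline. The control values were 2.73, 5.78 and 5.77 with kainate, against 2.13, 4.22 and 4.22 with saline. Every number 1 array was under 3, whatever its group, and within numbers 2 and 3 all kainate values were above all saline values. The averaged difference was 0.94 (1.92-fold), with an SE of 0.796 and an adjusted p of 0.625 by limma. With the block the SE was 0.181 and Kdm6b rose (adjusted p = 0.021). Without the number 1 arrays the rise was 1.29 (2.44-fold, SE 0.17, limma adjusted p = 0.00108), and it passed in controls (1.56, adjusted p = 0.00575) and in labelled mutants (1.02, adjusted p = 0.0295). The response differed between genotypes by -0.59, labelled mutant minus control, which did not pass with or without the block (limma adjusted p = 0.634 with it).

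Ing1, a PHD-finger subunit of a Sin3 histone deacetylase complex that binds methylated lysine 4 of histone H3, was also higher with kainate. In labelled mutants it read 8.46, 8.51 and 8.54 with kainate, against 8.40, 8.04 and 7.99 with saline. Ing1 in controls read 8.61, 8.44 and 8.72 with kainate, against 8.48, 8.23 and 8.22 with saline. The number 1 saline values sat close to the kainate values, and the genotype-averaged groups of 6 overlapped for that reason. The difference was 0.32 (1.25-fold, SE 0.0966, limma adjusted p = 0.18), and it rose with the block (adjusted p = 0.0474). Without the number 1 arrays it was 0.43 (limma adjusted p = 0.00739).

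Chd1l, an ATP-dependent remodeler recruited to poly(ADP-ribose) at DNA damage, differed by 0.58 in labelled mutants and 0.16 in controls. In labelled mutants it read 6.04, 5.62 and 5.24 with kainate, against 5.51, 4.95 and 4.69 with saline. Control arrays read 6.12, 5.39 and 4.84 with kainate, against 5.55, 5.24 and 5.08 with saline, so the number 3 pair ran the other way. The averaged difference was 0.37 (1.29-fold, limma adjusted p = 0.489), and Chd1l rose with the block (adjusted p = 0.0453). That call was lost without the number 1 arrays (0.28, limma adjusted p = 0.213, and 0.0855 with the block). In labelled mutants alone, without number 1, the difference was 0.61 and passed with the block (limma adjusted p = 0.0322) but not without it (0.109).

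**Figure D2:**
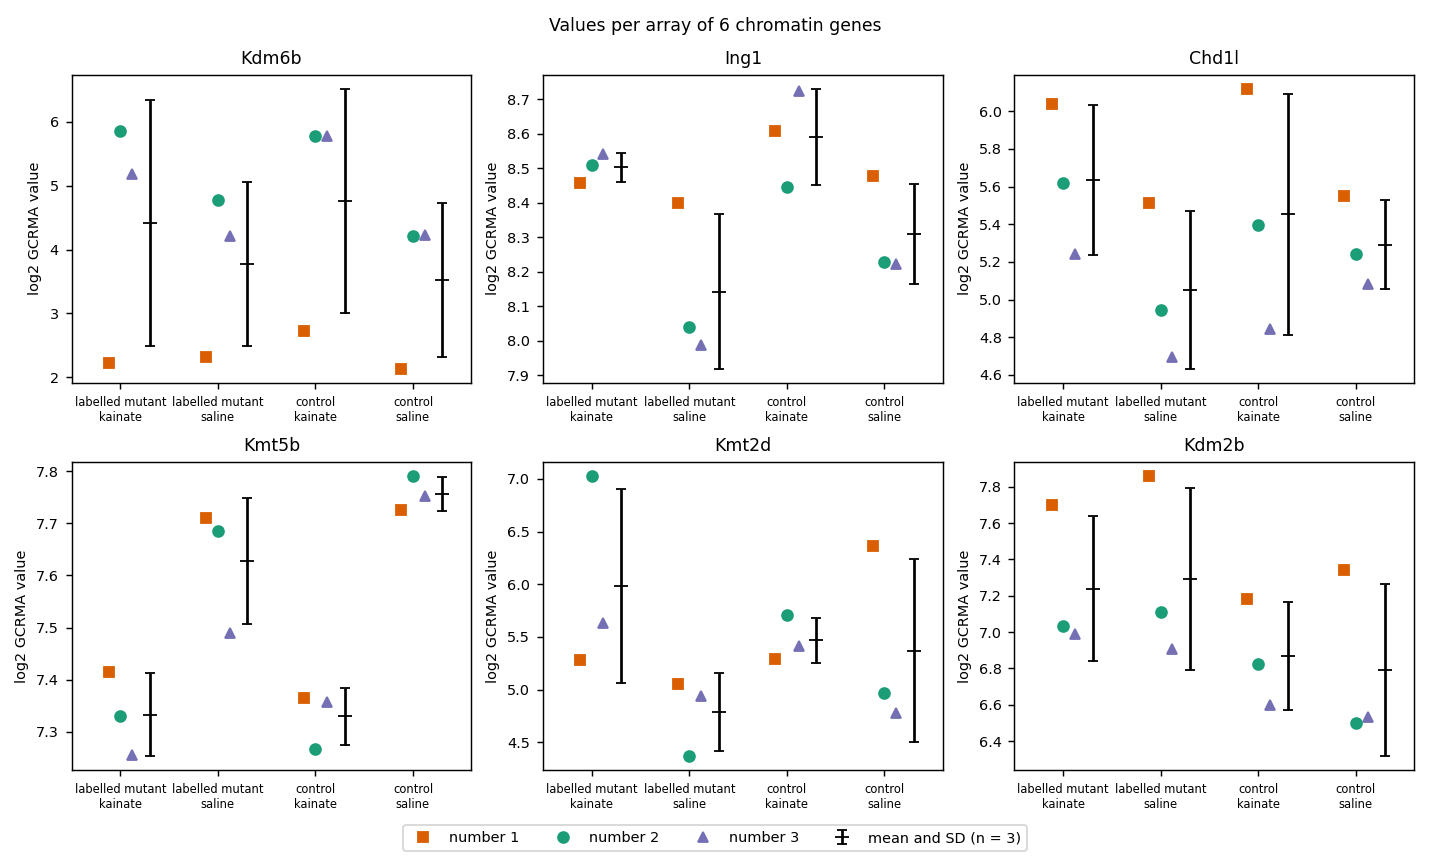
Log2 GCRMA values of 6 chromatin genes by group, 1 point per array with the replicate number as its shape, beside the group mean and SD (n = 3). Kmt5b lies lower in kainate arrays of both genotypes, and the number 1 points of Kdm6b lie under 3 in all groups.

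Kainate against saline was then compared within the labelled controls. By limma 0 of the 57 passed without the block, against 0.158% of all probe sets, and 0 with it, against 0.584%. An unadjusted p under 0.05 was reached by 6 without the block and 14 with it, against 11.6% and 25.6% of all. Values of the groups of 3 did not overlap for 10 genes, of which 8 were higher with kainate (14.0%, against 13.1% of all) and 2 lower (3.51%, against 6.27%). The 8 were the readers Phf14 (0.37) and Phf8 (0.22), the DNA methylation cofactor Dnmt3l (0.37), the demethylases Kdm1b (0.33) and Kdm2a (0.26), the acetyltransferase Kat5 (0.25), the 5-methylcytosine oxidase Tet3 (0.24) and the NuRD ATPase Chd4 (0.18). For Kdm2a the other measured probe set gave -0.60, and the mean of its probe sets -0.17. Kdm1b was over 4 in only 5 of the 12 arrays, with a range of 3.75 to 4.32. Its entry into the set is therefore not independent of the group where it was high. The 2 lower ones were Kmt5b (-0.43) and the ISWI ATPase Smarca5 (-0.27). All 10 differences were log2 values of less than 0.5 in size. Their share was close to that of all probe sets in the higher direction. In the number 2 and 3 arrays alone, Kdm6b passed without the block (1 of 57, against 10.1% of all), and Kdm6b and Kmt5b passed with it (2 of 57, against 12.5%).

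Kainate in labelled mutants gave 0 of the 57 by limma without the block, against 0.174% of all probe sets, and 0 with it, against 0.363%. An unadjusted p under 0.05 was reached by 4 without the block and 10 with it, against 6.28% and 15.5% of all. Values did not overlap for 7 genes. The 3 higher ones (5.26%, against 3.66% of all) were Kmt2d, Ing1 and the BAF scaffold Smarcc2. The 4 lower ones (7.02%, against 5.46%) were Kmt2e, Kmt5b, Tet3 and Setd2, which trimethylates lysine 36 of histone H3.

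Kmt2d, a lysine 4 methyltransferase that acts at enhancers, had the largest difference there. It read 5.29, 7.03 and 5.64 in labelled mutants with kainate, against 5.05, 4.37 and 4.94 with saline. The control values were 5.29, 5.71 and 5.41 with kainate, against 6.37, 4.97 and 4.78 with saline. The highest value of the labelled mutants and of the controls each came from a single array, number 2 with kainate and number 1 with saline. The difference in labelled mutants was 1.20 (2.29-fold, SE 0.484, limma adjusted p = 0.723). Without the number 1 arrays it was 1.68 (limma adjusted p = 0.0256), and averaged over genotypes 1.18 (limma adjusted p = 0.0127).

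Kmt2e, an MLL family protein with little known catalytic activity, read 6.57, 6.6 and 6.61 in labelled mutants with kainate, against 6.79, 7.15 and 6.92 with saline. Its difference was -0.36, while its other measured probe sets gave -0.13 and -0.09. Averaged over genotypes it was -0.27 (limma adjusted p = 0.0843 with the block). None of these Kmt2e values passed.

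Leaving out the number 1 arrays altered which genes passed, so the calls there are given as a description of the remaining 8 arrays. Averaged over genotypes, 6 of the 57 passed by limma without the block (10.5%, against 22.3% of all probe sets), namely Ing1, Kdm6b, Kmt2d, Kmt5b, Phf6 and Setd7. With the block 8 passed (14.0%, against 24.9%), those 6 with Brd1 and Kdm5c. In labelled mutants 4 passed without the block (7.02%, against 9.41%), Ing1, Kdm6b, Kmt2d and Phf6. With the block 7 passed there (12.3%, against 11.5%), those 4 with Brd1, Chd1l and Kdm5c. The first 3 shares were below those of all probe sets, and the last was close to its background. Phf6, an X-linked protein with atypical PHD fingers mutated in a human intellectual disability syndrome, read 6.80, 5.73 and 5.72 in labelled mutants with kainate, against 6.31, 6.56 and 6.38 with saline. Control arrays read 6.13, 5.68 and 5.93 with kainate, against 6.77, 6.65 and 6.05 with saline. Its averaged difference over all arrays was -0.45, and a further probe set gave -0.44. The number 1 pair in labelled mutants ran opposite to the other pairs.

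Setd7, a monomethyltransferase of lysine 4 on histone H3, read 9.45, 8.97 and 9.04 in labelled mutants with kainate, against 9.45, 9.30 and 9.27 with saline. Control arrays read 9.68, 9.18 and 9.09 with kainate, against 9.41, 9.46 and 9.41 with saline. Its kainate values were lower at numbers 2 and 3 in both genotypes and about equal or higher at number 1. Without number 1 the difference was -0.29 (limma adjusted p = 0.0167), against -0.15 over all arrays (adjusted p = 0.611).

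Brd1, a bromodomain scaffold of acetyltransferase complexes, read 8.11, 8.56 and 8.20 in labelled mutants with kainate, against 8.29, 7.98 and 7.79 with saline. The control values were 8.11, 8.27 and 7.92 with kainate, against 8.20, 7.94 and 7.77 with saline. Without number 1 its difference was 0.37 (limma adjusted p = 0.0536, and 0.0120 with the block). By its suffix the Brd1 probe set holds probes that other family sequences match, so its values are uncertain.

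Kdm5c, an X-linked demethylase of lysine 4 on histone H3, read 5.15, 5.92 and 5.75 in labelled mutants with kainate, against 5.5, 4.91 and 4.6 with saline. Its control values were 5.41, 6.10 and 4.99 with kainate, against 5.37, 5.43 and 5.51 with saline. In controls the number 3 pair ran opposite to the others. Without number 1 its averaged difference was 0.57 (limma adjusted p = 0.0836, and 0.0413 with the block). Its other measured probe set gave 0.06 averaged over genotypes on all arrays, against 0.33 for the one used, and -0.02 against 0.60 in labelled mutants.

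**Figure D3:**
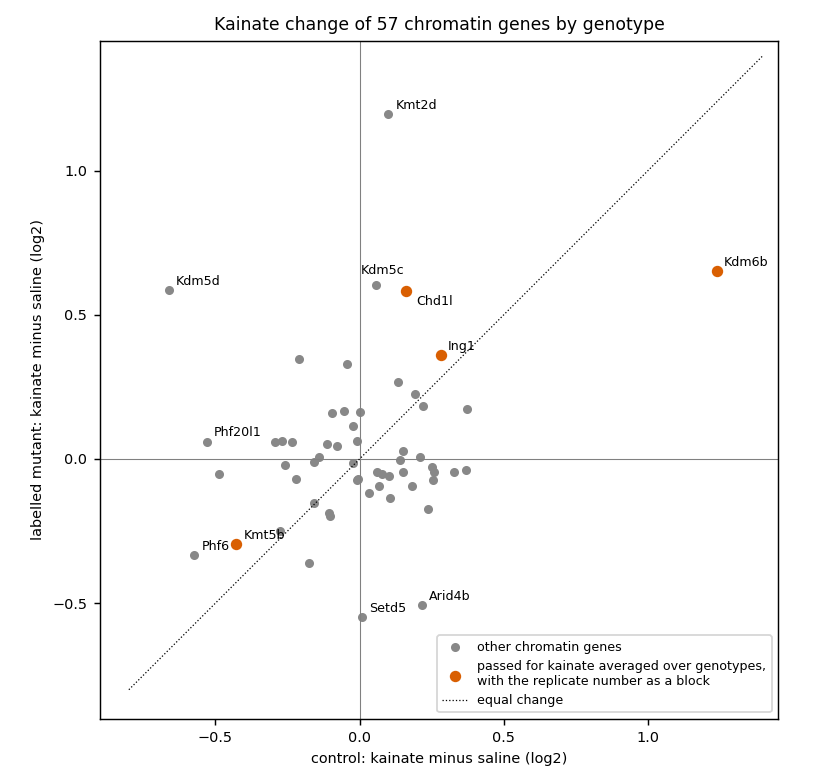
Kainate minus saline (log2) for each of the 57 genes, with labelled mutants on the vertical axis and controls on the horizontal axis. Orange marks the 4 genes that passed for kainate averaged over genotypes with the block, and the dotted line marks equal differences. Kdm6b (0.65 and 1.24) and Kmt2d (1.20 and 0.10) lie farthest from 0, and most genes lie within 0.5 of it on both axes.

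The difference between the kainate responses, labelled mutant minus control, addresses whether the response depends on genotype. By limma 0 of the 57 and 0 of all probe sets passed, without or with the block. An unadjusted p under 0.05 was reached by 3 of the 57 without the block and 7 with it, against 2.32% and 8.94% of all. The smallest p-values were those of Tet3 (-0.41), Kdm1b (-0.37), Dnmt3a (0.56), Dnmt3l (-0.41) and Kdm2a (-0.30), and each adjusted p was 1 in limma. The other measured probe set of Kdm2a gave 0.46 here, the opposite direction. Kdm1b lay close to the level of 4 and was over it in only 5 of the 12 arrays. Dnmt3a, a de novo DNA methyltransferase, read 6.38, 6.03 and 5.71 in labelled mutants with kainate, against 5.81, 5.77 and 5.51 with saline. Dnmt3a in controls read 5.77, 5.82 and 5.52 with kainate, against 6.07, 5.78 and 5.90 with saline. Kainate values of Dnmt3a overlapped saline values in both genotypes.

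Genotype was compared with each treatment and averaged over both. With saline, labelled mutant against control, 0 of the 57 passed by limma, against 0 of all probe sets without the block and 0.142% with it. With kainate 0 passed, against 0.0632% without the block and 0.111% with it. An unadjusted p under 0.05 was reached with saline by 0 of the 57 without the block and 7 with it, and with kainate by 1 and 6. The shares of all probe sets were 3.88% and 9% with saline, and 4.67% and 13.7% with kainate. Averaged over treatments 0 passed without the block, against 0.253% of all, and 1 passed with it (1.75%, against 2.32% of all, or 0.805% for the higher direction). An unadjusted p under 0.05 was reached by 0 without the block and 3 with it, against 6.47% and 13.6%.

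That gene was Kdm2b, a CpG island-binding demethylase that brings a Polycomb complex to unmethylated promoters. It read 7.70, 7.03 and 6.99 in labelled mutants with kainate, against 7.18, 6.82 and 6.6 in controls with kainate. With saline it read 7.86, 7.11 and 6.91 in labelled mutants, against 7.34, 6.50 and 6.53 in controls. The number 1 arrays read highest in every group, so groups overlapped although the labelled mutant was higher at each number and treatment. The averaged difference was 0.44 (1.35-fold, SE 0.224, limma adjusted p = 0.879), and Kdm2b rose with the block (SE 0.0818, adjusted p = 0.025). By number it was 0.52, 0.41 and 0.38. Without the number 1 arrays it was 0.40 and did not pass (limma adjusted p = 0.127, and 0.103 with the block), where 0.726% of all probe sets passed without the block and 1.26% with it. Marker levels of other cells differed between the genotypes too. Of the 6 principal neuron markers, 5 were below 0 for labelled mutant against control averaged over treatments, with a median of -0.32, and 2 fell with the block. Without it limma called 0 of the 6, while 2 reached an unadjusted p under 0.05. Of 5 microglia markers it called 1 without the block and 4 with it, all higher, and 4 had an unadjusted p under 0.05. Of 9 astrocyte markers it called 0 without the block and 3 with it, all higher, and 6 had an unadjusted p under 0.05. Of all probe sets 0.253% were called without the block and 2.32% with it, and 6.47% had an unadjusted p under 0.05 without it. Summed levels of the 5 measured microglia markers of 16 listed were 9.22 to 9.62 in labelled mutants with kainate and 9.0 to 9.42 with saline. In controls they were 8.72 to 8.74 with kainate and 8.57 to 8.73 with saline (log2). For 9 measured astrocyte markers of 15 listed the sums were 14.1 to 14.2 in labelled mutants with either treatment, against 13.9 to 14.0 in controls with either treatment. Their part in the Kdm2b difference was not tested.

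Smarcc1, a scaffold of BAF remodelling complexes, had the largest difference with kainate after Kmt2d, 0.49 on the log2 scale. It read 8.22, 7.45 and 7.59 in labelled mutants with kainate, against 7.46, 7.37 and 6.96 in controls with kainate. With saline it read 7.97, 7.71 and 7.41 in labelled mutants, against 7.86, 7.32 and 7.32 in controls. The averaged difference was 0.34 and did not pass (limma adjusted p = 0.116 with the block).

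Averaged over treatments, 0 of the 57 had values of the genotypes that did not overlap, against 0.332% of all probe sets with labelled mutants higher and 0.663% with them lower. With saline alone such genes were few. The higher one was Kmt2e (1.75%, against 4.48% of all probe sets), and the 2 lower ones were Kmt5b and the PBAF subunit Phf10 (3.51%, against 4.33%). With kainate the higher one was the PBAF subunit Arid2 (1.75%, against 3.09%). The 8 lower ones were Chd4, Kdm1b, Tet3, Kdm2a, Ing2, Kat5, Setd1a and Brd9 (14.0%, against 7.63%). Of these, Chd4, Kdm1b, Tet3, Kdm2a and Kat5, were also among the 8 that were higher with kainate in controls, and both comparisons use the same 3 control arrays with kainate. None of the 8 passed the test, and their differences lay between -0.23 and -0.04. Kdm1b was over the level of 4 in only 5 of the 12 arrays, and the other measured probe set of Kdm2a gave 0.27.

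**Figure D4:**
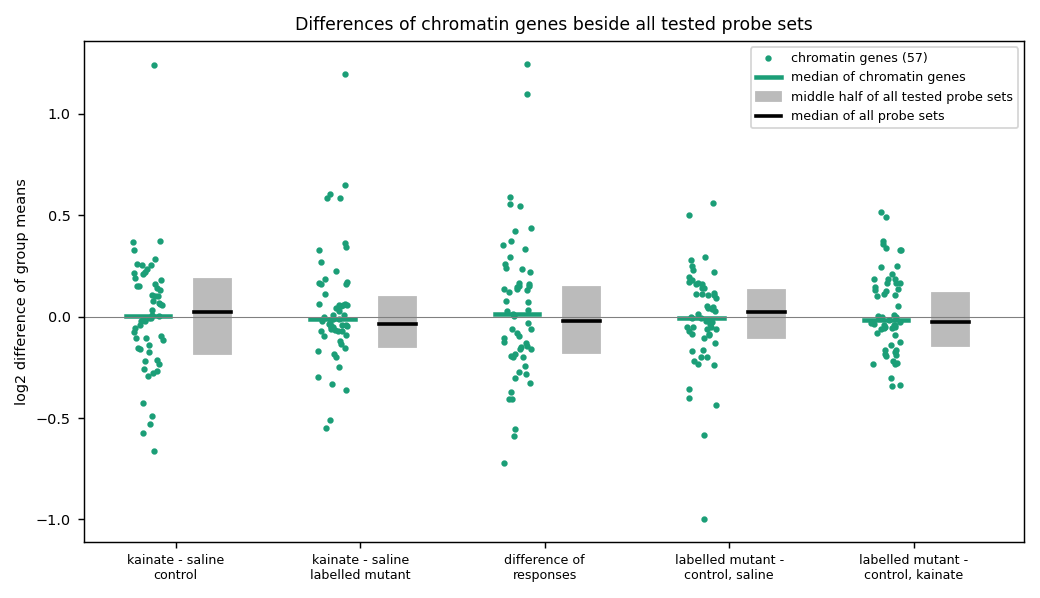
Log2 differences of the 57 chromatin genes, 1 point per gene, for kainate in each genotype, the difference of the responses and genotype with each treatment. Grey boxes span the quartiles of all tested probe sets, and bars mark medians. The medians of the 57 lie between -0.02 and 0.01, close to those of all probe sets. Differences over 0.5 in size made up 7.02% of the 57 for kainate in controls, against 8.86% of all. For kainate in labelled mutants the shares were 12.3% against 6.35%, and for the difference of responses 14.0% against 4.88%. For genotype they were 7.02% against 2.72% with saline and 1.75% against 3.46% with kainate. The 14.0% were Kdm5d, Kmt2d, Arid4b, Phf20l1, Kdm6b, Dnmt3a, Setd5 and Kdm5c, and none passed the test of that difference. Their SD within groups was 0.216 for Dnmt3a and 0.407 to 1.88 for the others, against a median of 0.211 over the 57.

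The 57 genes comprised, among the Kmt and Setd families, Kmt2c, Kmt2d, Kmt2e, Kmt5b, Setd1a, Setd2, Setd5 and Setd7, and in the Kdm family, Kdm1b, Kdm2a, Kdm2b, Kdm4b, Kdm4c, Kdm5a, Kdm5b, Kdm5c, Kdm5d, Kdm6a, Kdm6b and Kdm7a. The acetylation enzymes were Kat14, Kat5 and Kat6b, with the deacetylases Hdac11 and Hdac4. The readers were Brd1 and Brd9, Ing1, Ing2 and Ing3, and Phf10, Phf14, Phf2, Phf20, Phf20l1, Phf21a, Phf3, Phf6 and Phf8, of which Phf2 and Phf8 are also demethylases. The Smarc, Chd and Arid genes, most of them tied to remodelling or deacetylase complexes, were Smarca2, Smarca5, Smarcal1, Smarcc1, Smarcc2 and Smarcd3, Chd1l, Chd2 and Chd4, and Arid1b, Arid2, Arid4a, Arid4b and Arid5b, and the DNA methylation genes were Dnmt3a, Dnmt3l, Tet2 and Tet3. By family, kainate against saline in controls gave medians from -0.10 for Kat and Phf genes to 0.16 for Chd genes, and in labelled mutants from -0.17 for Kmt and Setd genes to 0.10 for Brd and Hdac genes. The 6 Smarc genes spread from -0.27 (Smarca5) to 0.19 (Smarcc2) in controls and from -0.06 (Smarca2) to 0.33 (Smarcal1) in labelled mutants. The 3 Ing genes were above 0 in controls, and 1 of 3, Ing1, was above 0 in labelled mutants. Hdac4, a class IIa deacetylase that shuttles with neuronal activity, gave -0.08 in controls and 0.04 in labelled mutants. Hdac11 gave 0.00045 and 0.16. Neither Hdac gene passed a test in any comparison.

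Some of the 57 genes varied more by replicate number than by any group, and these genes were singled out after their values were seen. Setd5, a SET-domain protein linked to intellectual disability in humans, read 4.24, 6.74 and 7.53 in labelled mutants with kainate and 4.32, 7.94 and 7.89 with saline. Control arrays read 4.38, 7.41 and 7.73 with kainate and 4.33, 7.71 and 7.45 with saline. The number 1 arrays averaged 3.23 lower on the log2 scale than the others (-3.23), and the SD within groups was 1.88, or 0.284 once the number was in the model. Arid4b, a Sin3 complex subunit, read 4.05, 6.73 and 6.88 in labelled mutants with kainate and 4.40, 7.91 and 6.88 with saline. The control values were 4.47, 6.74 and 6.95 with kainate and 4.03, 7.05 and 6.43 with saline, and the offset of number 1 was -2.71. Kdm6b had an offset of -2.65. Offsets below -2 were found in these 3 of 57 genes (5.26%), against 41 of all probe sets (0.647%), and offsets over 1 in size in 4 (7.02%), against 333 (5.26%). The fourth was Kdm5d, with 1.05.

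Kdm5d, a demethylase of lysine 4 on histone H3 encoded on the Y chromosome, was measured with a probe set whose suffix marks probes shared within a sequence family, so its values are uncertain. It read 5.77, 3.44 and 3.94 in labelled mutants with kainate and 3.93, 3.12 and 4.33 with saline. In controls it read 4.28, 3.92 and 4.19 with kainate and 5.92, 3.55 and 4.90 with saline. Xist, the RNA of the inactive X chromosome, was also named after its values were seen. It read 3.33, 3.97 and 3.80 in labelled mutants with kainate and 3.45, 6.37 and 3.83 with saline. In controls it read 3.59, 3.82 and 3.83 with kainate and 3.36, 5.28 and 3.31 with saline. Xist was highest on the number 2 saline array of each genotype. Kdm5d was lowest at number 2 in all 4 groups, the kainate groups included, where Xist read 3.97 and 3.82. A second Kdm5d probe set, under the level, read 2.67 to 3.07 over all arrays. The sex makeup of each pool is not given in the labels, and its part in the Kdm5d differences was not tested.

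**Figure D5:**
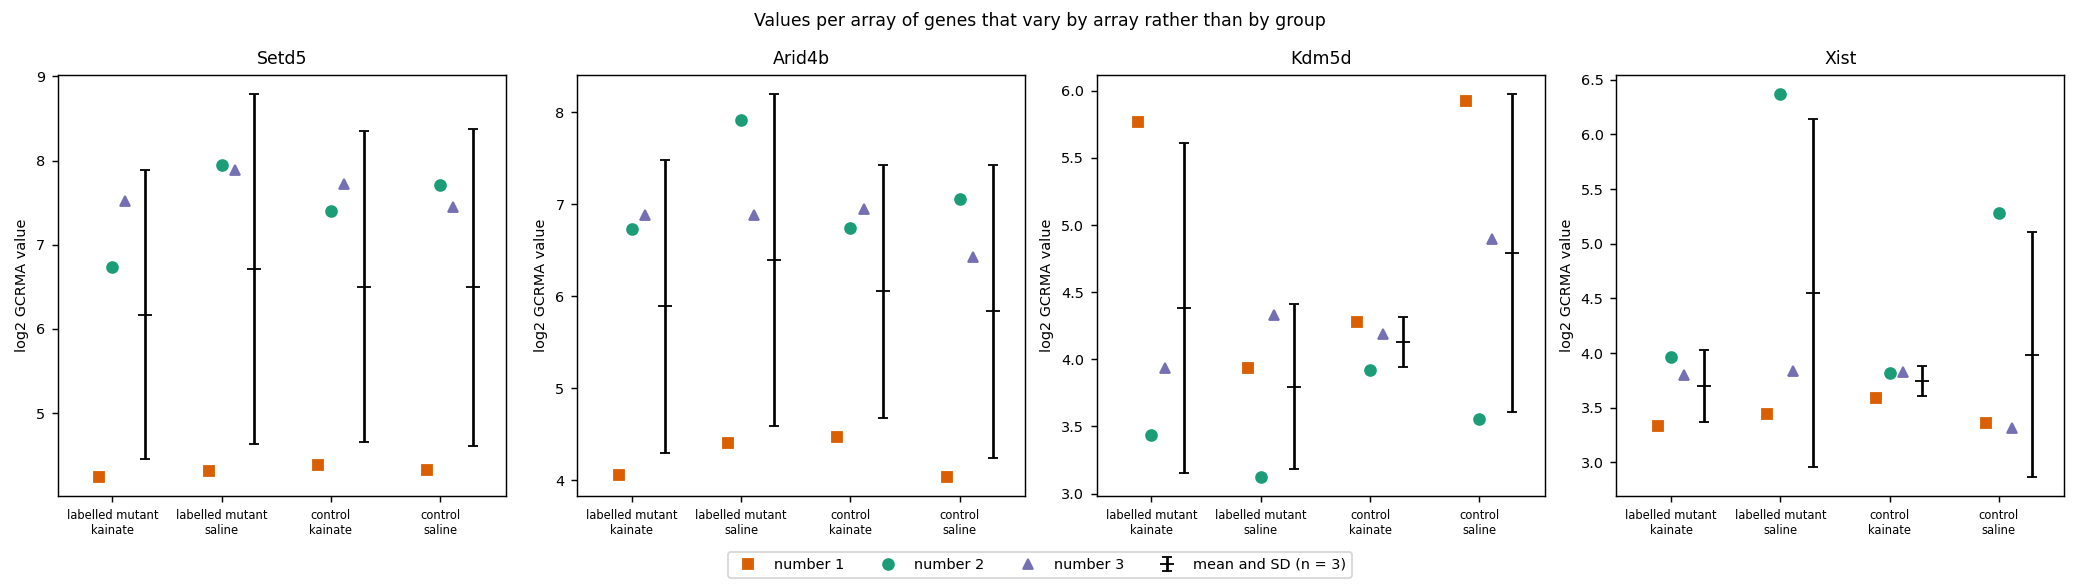
Log2 GCRMA values of Setd5, Arid4b, Kdm5d and Xist by group, 1 point per array with the replicate number as its shape, beside the group mean and SD (n = 3). Setd5 and Arid4b read 4.03 to 4.47 on all number 1 arrays, and Xist is highest on the number 2 saline arrays.

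A list of 198 other chromatin genes set the families beside histone methylation, acetylation, remodelling, silencing and histone chaperone genes with other names. Of these, 74 were measured. Kainate averaged over genotypes gave 2 of 74 by limma without the block, both higher, Dot1l and Spty2d1, against 0.41% of all probe sets. With the block 4 were higher and 4 lower, against 2.21% and 5.42% of all probe sets. The higher ones were Dot1l (0.95), the methyltransferase of lysine 79 on histone H3, Nsd3 (0.55), a lysine 36 methyltransferase, Ino80b (0.50), a remodeler subunit, and the histone chaperone Spty2d1 (1.15). The lower ones were Mllt10 (-0.93), a Dot1l cofactor, Riox1 (-0.40), and the MSL complex subunits Msl1 (-0.46) and Msl2 (-0.53). Labelled mutant against control, averaged over treatments, gave Spty2d1 lower (-1.51) without the block, and with it also Bcl11b (-0.84), a zinc finger transcription factor with known ties to BAF complexes, against 0.253% and 2.32% of all probe sets. Bcl11b is also one of the 6 principal neuron markers, and the lowest of them in this comparison. In controls given kainate Spty2d1 rose without and with the block, and with it Dot1l also rose (1.17) and Mllt10 fell (-1.63), against 0.158% of all probe sets without the block and 0.584% with it. Mllt10 read 4.21, 3.67 and 2.37 in controls with kainate, against 5.75, 4.77 and 4.62 with saline. It was over the level of 4 in only 8 of the 12 arrays, and this fall did not pass without the block (limma adjusted p = 0.424). In labelled mutants given kainate 0 of the 74 passed by limma, against 0.174% of all probe sets without the block and 0.363% with it. An unadjusted p under 0.05 was reached by 4 of the 74 without the block and 11 with it, against 6.28% and 15.5% of all. Kainate averaged over genotypes gave 16 and 27 of the 74 at that limit, against 14.7% and 28.2% of all. In controls kainate gave 12 and 18 of the 74, against 11.6% and 25.6%. The difference between the responses passed for 0 of the 74 and 0 of all probe sets, without or with the block. Dot1l also lay higher with kainate in labelled mutants (0.74, limma adjusted p = 0.122 with the block). Its responses differed by -0.43, labelled mutant minus control, and those of Mllt10 (-0.24 in labelled mutants) by 1.39. With the block the limma adjusted p of these differences was 0.615 for Dot1l and 0.545 for Mllt10. Labelled mutant against control gave Spty2d1 lower with kainate, against 0.0632% without the block and 0.111% with it. With saline it gave Bcl11b lower under the block, against 0.142%.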

How the data were processed

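The deposited values are log2 expression values, 1 for each probe set on each array. The submitters' processing notes name R 2.4.1 and GCRMA, a method that subtracts a background modelled from probe sequence and summarises each probe set. The settings of GCRMA were not given in the sources used here. Scanner files were not analysed. The table held 12477 entries, of which 66 were control probe sets. In the platform annotation 10581 probe sets had 1 symbol, 178 several and 1652 none, and only the first kind was named.

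Probe sets over 4 in at least 3 arrays were tested (6334). A model with 1 mean per group was fitted in limma 3.58.1 (R 4.3.3) to all 12 arrays (lmFit, eBayes with an intensity trend), with Benjamini-Hochberg adjustment over all tested probe sets at 0.05. Fold changes are differences of log2 values taken as powers. The replicate number as a block was an alternative. It was used because all 18 same-number pairs correlated above 0.1 and 12 of 12 arrays correlated best with their own number. These are correlations of deviations from group means of 3 arrays. The offset of number 1 by itself therefore raises them for numbers 2 and 3 as well, and the limit of 0.1 cannot show that those numbers are paired. The code was tested on simulated data. Other alternatives were quantile normalization, median centring, no level filter, no trend, other probe set rules and leaving out arrays. The fit with the block on numbers 2 and 3 alone was added after the data were seen. The number of arrays limits the precision.

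The genes, lists and tests were chosen with earlier results of these data known. Named are genes that passed in any comparison, up to 8 per direction whose groups did not overlap, those with the smallest p in each family or for the difference of responses, those nearest the level, and checks of the table. Differences were taken within a probe set, and marker sums add levels over the probe sets of a list.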

Additional observations from a re-analysis of the deposited data

Results flagged for a closer look

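For 2 of the 57 genes every kainate-minus-saline pair of arrays with the same number ran one way in labelled mutants and the other way in controls, against 4.10% of all probe sets (3.51% of the 57). For Chd4, the ATPase of the NuRD complex, the pairs gave -0.13, -0.03 and -0.12 in labelled mutants and 0.13, 0.17 and 0.24 in controls (log2), a difference of -0.27. For Tet3, a 5-methylcytosine oxidase, they gave -0.16, -0.03 and -0.33 in labelled mutants and 0.12, 0.10 and 0.49 in controls, a difference of -0.41. Neither difference passed limma's test of the difference itself. Tet3 read 4.06 to 4.17 in labelled mutants with kainate, 4.19 to 4.40 in labelled mutants with saline, 4.26 to 4.46 in controls with kainate and 3.98 to 4.23 in controls with saline, all close to the level of 4.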

How the results depend on the processing

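The counts of the 57 genes that passed by limma changed mainly with the replicate number. For kainate averaged over genotypes, 0 passed as reported, 4 with the replicate block, 3 with the block and quantile normalization, 1 without the intensity trend and 8 with the block on numbers 2 and 3 alone. Leaving out arrays or a replicate number gave 0 to 6, with 2 (Kmt5b and Phf6) without the labelled mutant kainate array of number 1 and 6 without all number 1 arrays. For kainate in controls the block on numbers 2 and 3 alone gave 2, and leaving out arrays gave 0 to 1. In labelled mutants these were 7, and 0 to 4. For genotype averaged over treatments 1 passed with the block and 1 with the block and quantile normalization. Over all 6334 probe sets, 26 passed for kainate averaged over genotypes, against 483 with the block and 1412 without number 1. Of 1358 values of named genes under an alternative, 1329 kept their direction and side of the threshold, 23 newly passed and 6 reversed, none of which had passed. Kdm2a reversed with the mean of its probe sets, to -0.17 for kainate in controls, 0.077 for the difference of responses and 0.041 for genotype with kainate. Hdac11 reversed for kainate averaged over genotypes without replicate 2 (-0.022) and without replicate 3 (-0.0031), within a range of -0.022 to 0.27 when arrays were left out. Hdac4 reversed for genotype without the control kainate array of number 1, within a range of -0.045 to 0.20. The cause was not tested. No scaling moved the median of all probe sets by 0.1 or more.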

Other observations

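Of the 57 genes, 14 had more than 1 probe set over the level. Their probe sets shared a sign in 8 of 14 genes for kainate in controls, 7 in labelled mutants and 5 for kainate averaged over genotypes. For genotype they did so in 8 of 14 with saline, 6 with kainate and 2 averaged over treatments. In 0 of the 14 were both differences over 0.5 in size with opposite signs. For Kdm2a the probe set not used here gave -0.60 for kainate in controls, against 0.26 for the one used.

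The 15 genes of these families that stayed under the level were Phf24, Brd8, Phf11b, Dnmt3b, Brd3, Chd8, Setdb2, Chd7, Setd3, Chd1, Setd6, Kdm3b, Kat2a, Arid5a and Chd5. Their values on these arrays carry no comparison.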
